A study of Mus musculus with 20 samples.

Results

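Interferon-stimulated genes were examined in bone marrow and kidney of mice given oxaliplatin, a platinum drug that crosslinks DNA. The set holds 35 genes, chosen by gene symbol, of the 55486 genes listed for each tissue, and all 35 had enough counts to be tested in both tissues. RNA came from 20 libraries, 5 per tissue and treatment, each from 1 mouse. Whether a marrow and a kidney library with the same number came from the same mouse is not given in the labels, and the tests between tissues treated all libraries as independent. The oxaliplatin group was C57BL/6 mice injected intraperitoneally at 10 mg/kg in 5% dextrose over 8 weeks, and the vehicle group was C57BL/6 mice given 5% dextrose alone. Mice of both groups were 10 weeks old at the start and, per the methods, male and female. Yet transcripts of Y-linked genes were present in all 20 libraries, summing to between 77.4 and 173 CPM (counts scaled to library size). Xist, which female cells express, was at most 2.88 CPM, so no library had a female pattern. Marrow from tibia and femur was collected 6 days after the last dose and its RNA was extracted with TRIzol and a column, whereas kidney RNA was extracted with the column kit alone. Marrow libraries held between 30660153 and 41140527 counts and kidney libraries between 24393007 and 30925430. The tissues matched their labels, since 12 kidney tubule markers summed to between 30355 and 35475 CPM in vehicle kidney and to between 12.3 and 16.2 CPM in vehicle marrow.

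Type I interferons bind a receptor that activates the kinases JAK1 and TYK2, which phosphorylate STAT2. With IRF9, STAT2 is part of a complex that binds the interferon-stimulated response element (ISRE) in the promoters of antiviral genes, and IRF7 is both a product of this response and an inducer of more interferon. Blood-forming marrow keeps a low, tonic level of this program without infection, and plasmacytoid dendritic cells are the best known source of type I interferon.

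In bone marrow, most of the members that changed were lower after oxaliplatin. A gene was called when the Benjamini-Hochberg adjusted p over all tested genes was under 0.05 and the change exceeded 1.5-fold. By that rule 15 of the 35 members (42.9%) fell and 2 (5.71%) rose, while 18 were not called. Over all 22363 genes tested in marrow, 11.8% were called lower and 11.6% higher, 23.3% in all. Of 87 further interferon-stimulated genes tested there, 14 (16.1%) were called lower and 12 (13.8%) higher, near those shares. The fall is thus a result for the members listed and not for interferon-stimulated genes at large. The median log2 fold change was -0.50 over the members and -0.04 over all genes tested. The groups did not overlap, with every oxaliplatin mouse below every vehicle mouse, for 20 members, against 13.5% of all genes, and lay fully above for 1 member, against 11.4% (24.9% of all genes either way). Without the fold threshold 20 members were lower and 3 higher at an adjusted p under 0.05, against 33.1% of all genes. In RNA from whole marrow, fewer cells of a type and less RNA per cell cannot be told apart. In kidney, 2 members rose and 0 fell.

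**Figure D1:**
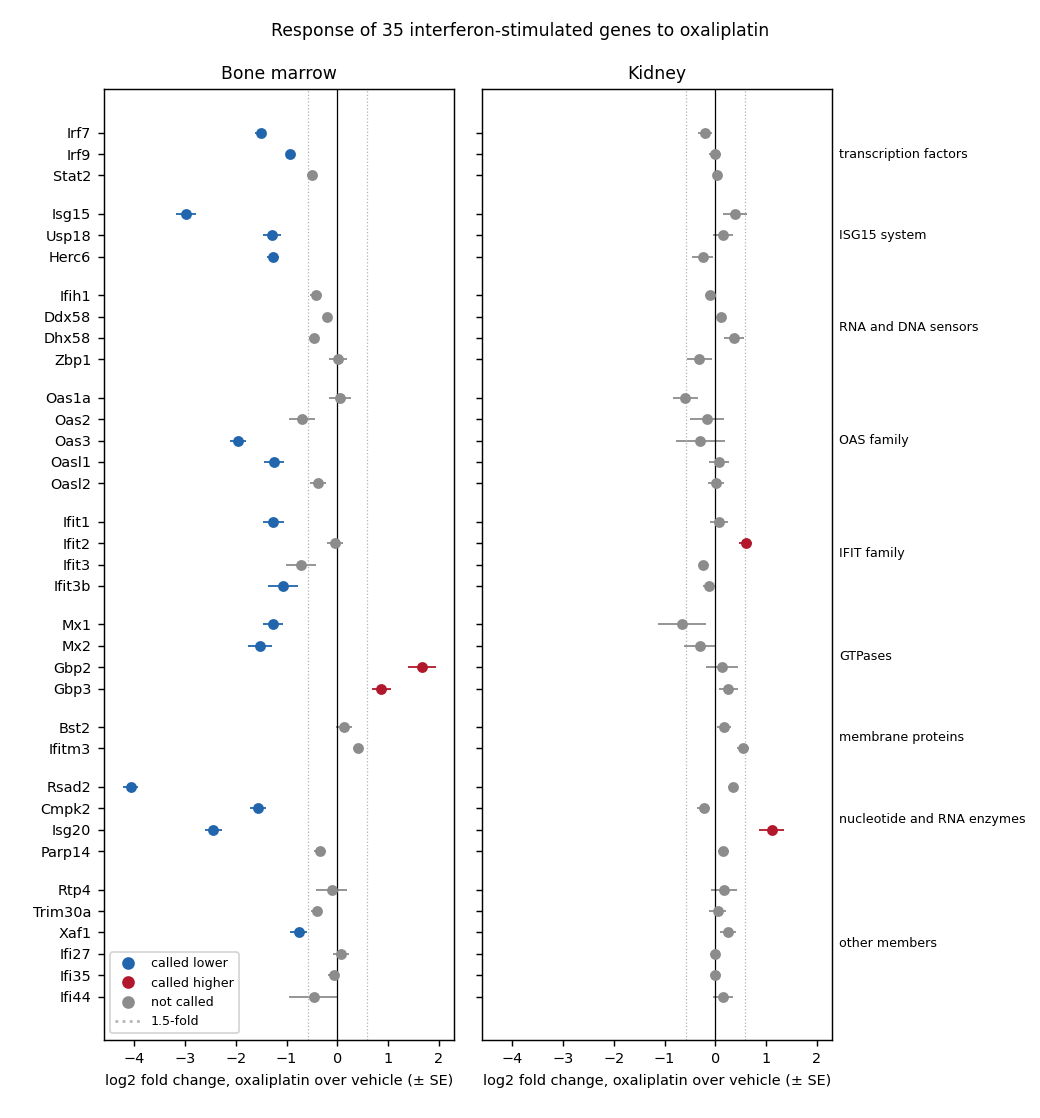
Log2 fold change, oxaliplatin over vehicle, with its SE (horizontal axis) of each of the 35 members, grouped by role (vertical axis), in bone marrow and kidney with 5 mice per group; dotted lines mark 1.5-fold. In marrow 15 members are called lower, down to Rsad2 at -4.07, and Gbp2 and Gbp3 are called higher, whereas in kidney Ifit2 and Isg20 are called higher and the other 33 are not called.

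The ISRE was searched for as its core, GAAA then 2 bases of any kind then GAAA, on both strands, in the 250 bases upstream of each gene start in RefSeq promoters (GRCm38.p6). Promoters of 26 members were matched by symbol, and 12 of them held the core, against 3.038% of the first-listed promoters of 27025 genes. By marrow call, the ISRE core was present in 5 of the 12 matched members that fell, in 2 of 2 that rose and in 5 of the 12 matched members that were not called. Stretches of 43 to 60 bases around the match nearest the gene start are shown for the members that fell or rose, so that the opposite directions can be read beside similar letters. Each is 5′ to 3′ on the strand of its gene, with the core nearest the start in capitals. The Isg15, Ifit1 and Gbp3 stretches hold further matches to the core, wholly or partly in small letters.
Rsad2: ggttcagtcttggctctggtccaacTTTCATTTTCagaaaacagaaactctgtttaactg
Isg15: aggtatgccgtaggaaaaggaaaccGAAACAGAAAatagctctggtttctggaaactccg
Oas3: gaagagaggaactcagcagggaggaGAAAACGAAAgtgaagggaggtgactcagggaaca
Ifit1: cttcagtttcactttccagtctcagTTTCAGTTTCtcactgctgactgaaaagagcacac
Ifit3b: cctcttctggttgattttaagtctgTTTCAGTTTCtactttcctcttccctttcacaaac
Gbp2: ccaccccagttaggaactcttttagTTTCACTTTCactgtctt
Gbp3: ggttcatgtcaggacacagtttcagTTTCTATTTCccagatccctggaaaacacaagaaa

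These stretches lie at chr12:26456538-26456597 on the minus strand (Rsad2), chr4:156200850-156200909 on the minus strand (Isg15), chr5:120777700-120777759 on the minus strand (Oas3), chr19:34640779-34640838 on the plus strand (Ifit1), chr19:34607778-34607837 on the plus strand (Ifit3b), chr3:142620579-142620621 on the plus strand (Gbp2) and chr3:142559980-142560039 on the plus strand (Gbp3). Distances were taken to the RefSeq start, which can differ from the GENCODE start. The first base of the core in capitals stood 39 bases before that start in Gbp3, 59 in Gbp2 and 66 in Isg15. It stood 75 bases before it in Oas3, 85 in Ifit1, 120 in Rsad2 and 154 in Ifit3b. In GENCODE Gbp2 starts at 142620602, so the Gbp2 core lay inside the gene as annotated there. The Ifit3 stretch, at chr19:34583382-34583441, had the same letters as that of Ifit3b, yet only Ifit3b was called in marrow. The core of the gamma-activated site (GAS), TTC then 3 bases of any kind then GAA, was searched in the same way. It was present in 4 of the 26 matched members, against 7.179% of all genes. By marrow call it was in 1 of 12 that fell, 0 of 2 that rose and 3 of 12 not called. A match to the letters of either core is a description of the sequence and does not show binding.

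Of the transcription factors, Irf7 and Irf9 fell in marrow. Irf7, the factor that amplifies interferon production, read 51.8, 57.3, 51.4, 63.3 and 54.4 CPM with vehicle and 20.5, 20.3, 17.5, 23.1 and 16 CPM with oxaliplatin. The lowest vehicle mouse was thus above the highest oxaliplatin mouse, and the log2 fold change was -1.51 ± 0.11 (SE, adjusted p = 7.87e-07). Irf9, the DNA-binding subunit of the interferon complex, went from between 66.7 and 88.3 CPM to between 37.5 and 42.2 CPM, without overlap (log2 fold change -0.93 ± 0.09, adjusted p = 6.27e-06). Stat2, its partner, went from between 67.1 and 72.3 CPM to between 40.6 and 53.3 CPM, again without overlap, but its log2 fold change of -0.50 ± 0.09 (adjusted p = 0.000716) was under 1.5-fold, so it was not called. The exons of Irf9 share 123 bases with Rnf31 on the same strand and those of Irf7 share 45 bases with Phrf1 on the other strand, so a small part of their counts may be uncertain.

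All 3 members of the ISG15 system were called lower in marrow, against 11.8% of all genes tested. Isg15, the ubiquitin-like protein that is attached to other proteins during the interferon response, read 26.9, 32.3, 37.4, 36.7 and 26.8 CPM with vehicle and 3.77, 5.13, 5.19, 3.65 and 2.56 CPM with oxaliplatin. Its level was 7.89-fold lower, the log2 fold change was -2.98 ± 0.20 (adjusted p = 3.36e-07), and the groups were far apart. Usp18, which removes ISG15 and restrains the type I receptor, went from between 9.74 and 12.7 CPM to between 3.34 and 6.44 CPM (log2 fold change -1.28 ± 0.17, adjusted p = 9.24e-05). Herc6, the mouse ligase of ISG15, went from between 19.8 and 24.4 CPM to between 8.08 and 11.2 CPM (log2 fold change -1.27 ± 0.12, adjusted p = 3.8e-06). Neither gene's groups overlapped. The other enzymes of the conjugation chain, which are not members, also fell in marrow: Ube2l6, the conjugating enzyme, from 359.9 to 66.6 CPM (log2 fold change -2.43 ± 0.17), and Uba7, the activating enzyme, from 146 to 95.5 CPM (-0.61 ± 0.11). Uba7 was singled out after its values were seen, and its change was only just beyond 1.5-fold. The Isg15 transcript matches that of AC151275.1 at 95.2% identity over 482 bases, and Herc6 exons share 1269 bases with Gm45193 on the same strand, so reads could be split or lost there.

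The largest fall among the members was that of Rsad2, which encodes viperin, an enzyme that makes a chain-terminating nucleotide against viral polymerases. Rsad2 read 267, 295, 312, 336 and 225 CPM with vehicle and 18.2, 20.5, 16.6, 16.7 and 13.4 CPM with oxaliplatin. The groups were far apart, the mean was 16.8-fold lower, and the log2 fold change was -4.07 ± 0.15 (adjusted p = 7.1e-09). Isg20, a 3′ to 5′ exonuclease that degrades RNA, read 189, 190, 200, 217 and 150 CPM with vehicle and 26.4, 41.6, 46.6, 31.4 and 27.9 CPM with oxaliplatin, a log2 fold change of -2.44 ± 0.17 (adjusted p = 4.55e-07). Its groups did not overlap either, and the mean was 5.44-fold lower.

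Cmpk2, a mitochondrial nucleotide kinase, lies head to head with Rsad2 on chromosome 12, 12.8 kb away. Cmpk2 read 75.9, 89.1, 74.5, 103 and 76.4 CPM with vehicle and 31.1, 32.4, 22.3, 20.8 and 35.6 CPM with oxaliplatin. It fell without overlap, but less than its neighbour, with a log2 fold change of -1.56 ± 0.16 (adjusted p = 9.19e-06). Parp14, an ADP-ribosyltransferase, had between 86.5 and 110 CPM with vehicle and between 63.3 and 90.9 CPM with oxaliplatin, and its groups overlapped (log2 fold change -0.35 ± 0.11, adjusted p = 0.0316, not called).

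The OAS family, whose enzymes sense double-stranded RNA and activate RNase L, divided by gene. Oas3 read 103, 109, 118, 118 and 110 CPM with vehicle and 28.8, 35.4, 18.0, 26.5 and 34.9 CPM with oxaliplatin, and fell without overlap (log2 fold change -1.96 ± 0.16, adjusted p = 1.44e-06). Oasl1, an OAS-like protein without that enzyme activity, which represses translation of Irf7, went from between 7.18 and 11.8 CPM to between 2.98 and 4.98 CPM (log2 fold change -1.25 ± 0.20, adjusted p = 0.000324). Oas2, 3.2 kb from Oas3, had a log2 fold change of -0.69 ± 0.25 (adjusted p = 0.0534), and its groups overlapped. Oas1a, 118.6 kb from Oas3, had 0.05 ± 0.21 (adjusted p = 0.882), and Oasl2, 11 kb from Oasl1, had -0.38 ± 0.16 (adjusted p = 0.077). Oas2 crossed the threshold with DESeq2 and when oxaliplatin mouse 4, vehicle mouse 1 or vehicle mouse 4 was left out (log2 fold change -0.84, -0.79 and -0.80 in these). Oas1a and Oas1g transcripts are 97.6% identical over 1861 bases, so the reads of these 2 genes cannot be fully separated.

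Members of the IFIT family, which bind viral RNA and block its translation, lie together on chromosome 19 and were likewise unequal. Ifit1 read 7.84, 8.98, 6.55, 9.82 and 7.56 CPM with vehicle and 3.19, 3.60, 3.72, 4.38 and 2.05 CPM with oxaliplatin, and fell without overlap (log2 fold change -1.26 ± 0.20, adjusted p = 0.000374). Ifit3b fell from between 2.47 and 3.79 CPM to between 0.727 and 2.21 CPM (log2 fold change -1.07 ± 0.29, adjusted p = 0.0129), a call lost with Y-linked expression as a covariate (-0.69, adjusted p = 0.083). Ifit3 had -0.72 ± 0.30 (adjusted p = 0.0871) with overlapping groups, and without oxaliplatin mouse 4 it reached -0.93 (adjusted p = 0.0369). Ifit3 and Ifit3b transcripts are 97.8% identical over 1700 bases, so how their reads were divided is uncertain. Ifit2, at the other end of the cluster, had between 16.3 and 25 CPM with vehicle and between 15.3 and 24.2 CPM with oxaliplatin (log2 fold change -0.05 ± 0.16, adjusted p = 0.825).

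The dynamin-like GTPases Mx1 and Mx2 and the guanylate-binding proteins Gbp2 and Gbp3 went in opposite directions in marrow. All 4 were called, against 23.3% of all genes tested. Mx1 fell from between 9.03 and 10.1 CPM to between 2.44 and 5.82 CPM (log2 fold change -1.27 ± 0.20, adjusted p = 0.000266), and Mx2 from between 2.56 and 4.01 CPM to between 0.835 and 1.63 CPM (-1.53 ± 0.24, adjusted p = 0.000325), both without overlap. The annotation lists both as polymorphic pseudogenes, since many laboratory strains carry disrupted copies, and the 2 transcripts are 95.3% identical over 843 bases. Gbp2, which attacks the membrane of vacuoles holding pathogens and is known for its response to interferon gamma, read 8.16, 9.79, 8.69, 16.1 and 8.18 CPM with vehicle and 25.5, 38.0, 38.0, 45.1 and 15.9 CPM with oxaliplatin. Its mean rose 3.19-fold (log2 fold change 1.67 ± 0.28, adjusted p = 0.00056). The groups overlapped by a single pair, because vehicle mouse 4 was just above oxaliplatin mouse 5.

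Gbp3, 47.4 kb from Gbp2 on chromosome 3, had the same pattern. It read 10.2, 11, 10.1, 13.8 and 10.7 CPM with vehicle and 17.2, 24.0, 20.4, 27.5 and 12.7 CPM with oxaliplatin, a log2 fold change of 0.87 ± 0.19 (adjusted p = 0.00284). Again vehicle mouse 4 was the highest of its group and oxaliplatin mouse 5 the lowest, and only these overlapped. Over the fits that omitted 1 marrow library, the value lay between 1.53 and 1.90 for Gbp2 and between 0.74 and 1.04 for Gbp3 on the log2 scale, and both stayed called.

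**Figure D2:**
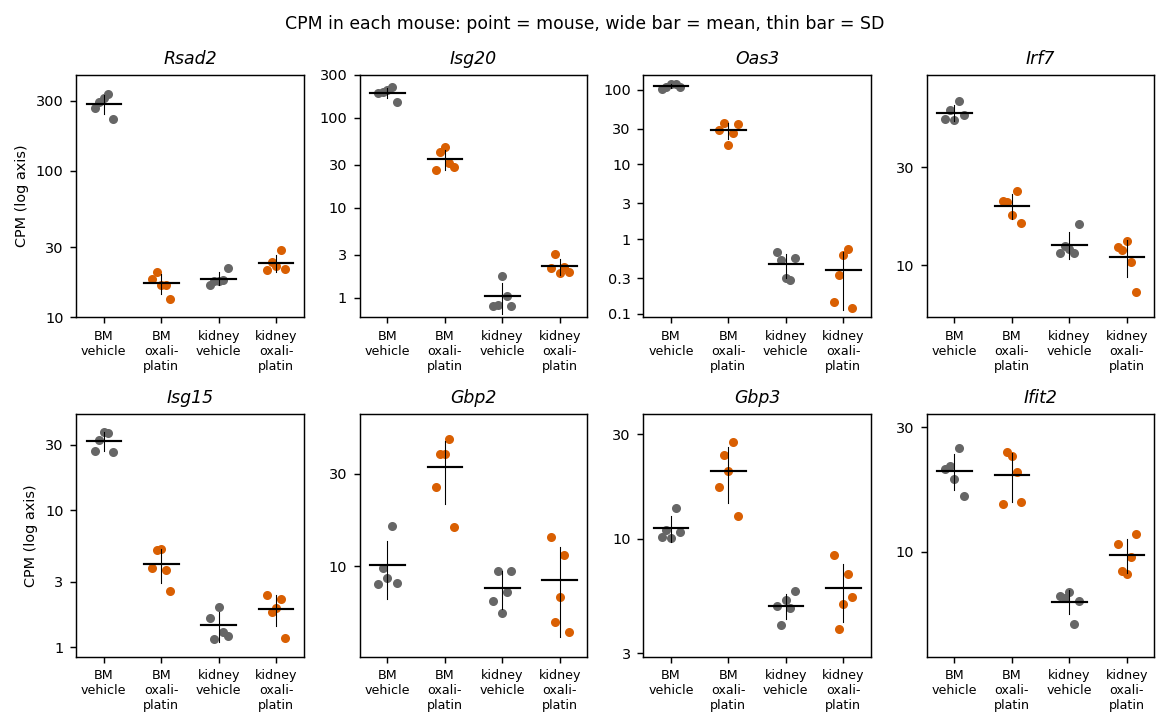
CPM (log axis) of 8 members in each mouse, in bone marrow (BM) and kidney with vehicle (grey) and oxaliplatin (orange); wide bars are means and thin bars SDs over 5 mice, and CPM were scaled within each tissue. Rsad2, Isg20, Oas3, Irf7 and Isg15 separate the marrow groups, Gbp2 and Gbp3 are higher in marrow with oxaliplatin apart from 1 mouse, and Ifit2 and Isg20 are higher in kidney with oxaliplatin.

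None of the 4 sensors was called in marrow by edgeR or by DESeq2, although 3 had an unadjusted p under 0.05. Ifih1 (MDA5) and Dhx58 (LGP2), which detect or help detect viral RNA, passed the adjusted p but stayed under 1.5-fold, with log2 fold changes of -0.43 ± 0.12 (adjusted p = 0.0126) and -0.46 ± 0.10 (adjusted p = 0.00424) and groups that did not overlap. Ddx58 (RIG-I) was within a narrow band, between 50.5 and 54.2 CPM with vehicle and between 39.0 and 48.1 CPM with oxaliplatin, without overlap and with an adjusted p of 0.0647. Zbp1, a sensor of Z-form nucleic acid that can start necroptosis, had a log2 fold change of 0.02 ± 0.18 (adjusted p = 0.96). Of the 2 membrane proteins neither was called. Ifitm3, which blocks virus entry, lay between 80.5 and 103 CPM with vehicle and between 110.0 and 142 CPM with oxaliplatin, the 1 member whose groups lay apart with oxaliplatin above, yet under 1.5-fold (log2 fold change 0.41 ± 0.10, adjusted p = 0.00613). Bst2 (tetherin), which holds budding virus at the cell surface and is also used as a plasmacytoid dendritic cell marker, had 0.13 ± 0.16 (adjusted p = 0.579).

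Of the remaining 6 members, Xaf1, a pro-apoptotic protein, fell from between 9.22 and 12.7 CPM to between 4.66 and 8.74 CPM (log2 fold change -0.76 ± 0.17, adjusted p = 0.00354), and with Y-linked expression as a covariate it dropped to just under 1.5-fold (-0.58, adjusted p = 0.0321). Trim30a, an E3 ligase that restrains innate signalling, was lower without overlap but under 1.5-fold (-0.41 ± 0.11, adjusted p = 0.0125). Rtp4, Ifi27, Ifi35 and Ifi44 had log2 fold changes of -0.11, 0.07, -0.07 and -0.47, none past an adjusted p of 0.05. Rtp4 in oxaliplatin mouse 5 was at 2.72 CPM against 7.43 to 12.2 CPM in the other oxaliplatin mice, and Ifi44 lay between 0.173 and 2.33 CPM with oxaliplatin and between 0.901 and 2.28 CPM with vehicle.

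The rank of the members by abundance also changed. Per kilobase of exon, the highest vehicle means in marrow were 134 CPM for Ifitm3, 102 for Isg20, 66.2 for Rsad2, 42.3 for Isg15 and 27.0 for Bst2. With oxaliplatin the highest were 178 for Ifitm3, 29.6 for Bst2, 18.7 for Isg20, 17.4 for Ifi27 and 12.9 for Gbp2, whereas Rsad2 was at 3.94 and Isg15 at 5.37 CPM per kilobase. These 5 highest shared Ifitm3, Isg20 and Bst2.

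Mice differed in how high the whole set was. Averaged over the 35 members as mean log2 CPM, the vehicle mice lay between 4.36 and 4.70 in marrow and the oxaliplatin mice between 3.37 and 3.93, a difference of -0.79 that shrank to -0.24 with the median over the members in place of the mean. Vehicle mouse 4 held the highest vehicle value for 27 of the 35 members (77.1%), against 32.1% of all genes tested. Oxaliplatin mouse 5 held the lowest oxaliplatin value for 19 (54.3%), against 22.8% of all genes, and oxaliplatin mouse 4 the highest for 17 (48.6%), against 15.4%. With each library left out in turn, between 17 and 19 members were called in marrow, 2 of them higher each time.

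**Figure D3:**
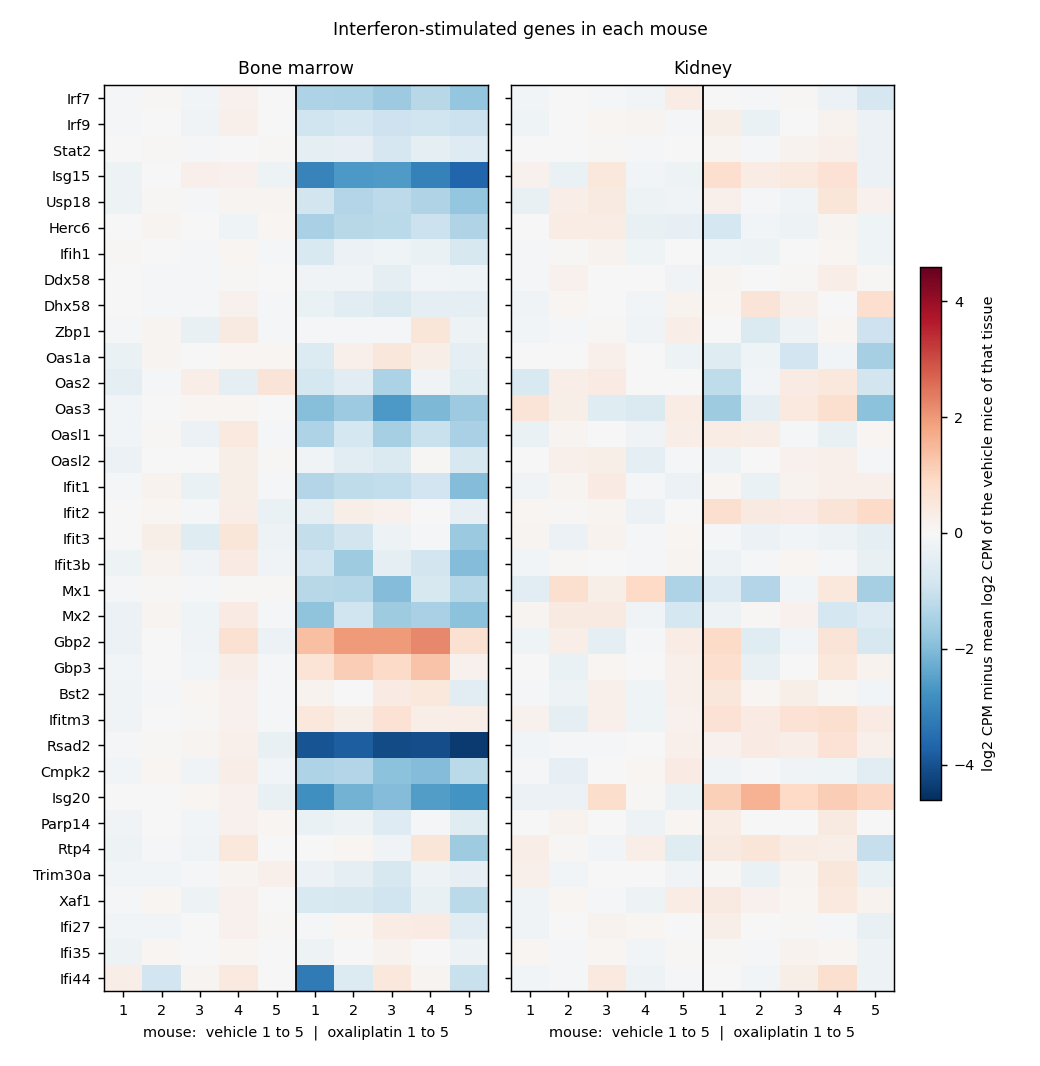
Heat map of the 35 members (rows) in each of the 20 libraries (columns), as log2 CPM minus the mean log2 CPM of the vehicle mice of that tissue; blue is below and red above that mean. The marrow columns with oxaliplatin are mid to dark blue in every mouse for Rsad2, Isg15 and Isg20, and in 1 mouse for Ifi44. They are light red for Gbp2 and paler for Gbp3, which is nearly white in oxaliplatin mouse 5. Most kidney columns are pale, with Isg20 pale red in every oxaliplatin mouse.

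Markers of cell types were counted beside these changes in marrow, where 11.8% of all genes tested were called lower and 11.6% higher. Of 12 plasmacytoid dendritic cell markers 9 fell, with a median log2 fold change of -1.90, and their summed level was between 425 and 497 CPM with vehicle and between 202 and 241 CPM with oxaliplatin. Siglech, a defining marker of these cells, fell from 31.3 to 4.44 CPM, whereas Tcf4, their lineage factor, was at 97.3 and 93.8 CPM (adjusted p = 0.733). Of 12 B cell markers 10 fell (median -2.43), summing to between 400 and 699 CPM and then to between 121 and 182 CPM. All 12 late erythroid markers fell (median -2.69), from between 32910 and 56374 CPM to between 4380 and 10963 CPM.

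In the other lists fewer markers fell, or markers rose. The 2 of 12 that fell in each of the T and NK cell, monocyte and macrophage lists (16.7%) were near the 11.8% of all genes. None of 12 neutrophil markers was called by edgeR or DESeq2, and 0 had an unadjusted p under 0.05 in edgeR; their sum was between 22014 and 26809 CPM with vehicle and between 10727 and 32346 CPM with oxaliplatin. Among monocyte markers 3 of 12 rose and 2 fell (sums of 1794 to 2133 CPM and 1263 to 3215 CPM), and among macrophage markers 4 rose and 2 fell (1485 to 2069 CPM and 1646 to 3340 CPM). Of 12 T and NK cell markers 2 fell (135 to 182 CPM and 93.2 to 124 CPM), 6 of 12 endothelial markers rose (587 to 729 CPM and 830 to 1329 CPM) and all 12 adipocyte markers rose (169 to 264 CPM and 1131 to 4766 CPM). No marker of these lists was at 0 in all marrow libraries. The part of these cell types in the members' changes was not tested.

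In kidney, 2 of the 35 members (5.71%) were called, against 11.5% of 19293 genes tested. Both rose, against 7.68% of all genes, and 0 fell, against 3.8%, by edgeR as by DESeq2, with 2 members (Oas1a and Ifit3) lower at an unadjusted p under 0.05. The median log2 fold change was 0.05 over the members and 0.02 over all genes. Isg20 read 0.820, 0.837, 1.73, 1.04 and 0.809 CPM with vehicle and 2.15, 3.06, 1.90, 2.21 and 1.95 CPM with oxaliplatin, low in every mouse but without overlap (log2 fold change 1.11 ± 0.25, adjusted p = 0.00301). Ifit2 read 6.78, 6.66, 7.03, 5.30 and 6.47 CPM with vehicle and 10.7, 8.47, 8.26, 9.60 and 11.7 CPM with oxaliplatin, also without overlap (0.60 ± 0.13, adjusted p = 0.00197). The Ifit2 call is close to the fold threshold, and it was lost without vehicle mouse 4 (0.54), oxaliplatin mouse 1 (0.57) or oxaliplatin mouse 5 (0.53).

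Among the other 33 members in kidney, Ifitm3 and Rsad2 passed the adjusted p without reaching 1.5-fold, so that 4 members passed it in all, against 29.4% of all genes. Ifitm3 lay between 17.0 and 26.3 CPM with vehicle and between 28.9 and 36.8 CPM with oxaliplatin (log2 fold change 0.54 ± 0.12, adjusted p = 0.00319), and it crossed 1.5-fold in 5 of the 10 fits that left out 1 library. Rsad2 had a log2 fold change of 0.36 ± 0.10 (adjusted p = 0.0119), with between 16.7 and 21.6 CPM and then between 21.0 and 28.9 CPM. Groups lay apart with oxaliplatin above for 3 members, against 9.69% of all genes, and with oxaliplatin below for 0, against 11% (20.7% either way). The mean log2 CPM over the members was between 2.15 and 2.36 with vehicle and between 1.99 and 2.48 with oxaliplatin. Oas3, Mx1, Mx2 and Oas2 averaged under 1 CPM in vehicle kidney, so a change in these was measured with little precision, with SEs between 0.31 and 0.48 on the log2 scale.

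Marker lists in kidney were as follows, where 7.68% of all genes tested were called higher and 3.8% lower. Of 9 macrophage markers tested 1 rose and 4 fell, of 10 adipocyte markers 6 rose and 1 fell, of 12 endothelial markers 3 rose and of 12 tubule markers 4 fell, whose sum went from between 30355 and 35475 CPM to between 20207 and 27158 CPM. Of 10 monocyte markers tested 1 rose and 2 fell, of 5 T and NK cell markers 1 fell, and 1 rose in each of the plasmacytoid dendritic cell (9 tested), B cell (3), neutrophil (2) and late erythroid (9) lists. In vehicle kidney the plasmacytoid dendritic cell list summed to between 3953 and 4390 CPM, against 425 to 497 CPM in vehicle marrow. The adipocyte list summed to between 2965 and 3784 CPM with vehicle and between 2229 and 3774 CPM with oxaliplatin, without a rise. Counts of these 2 lists in kidney therefore do not measure those cells.

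The response differed between the tissues for 19 of the 35 members by the tissue by treatment interaction across all 20 libraries, against 30.1% of 24321 genes tested. The kidney response lay above the marrow response for 18 of them, against 13.1% of all genes, and below it for 1, Gbp2, against 17%. The difference, as kidney minus marrow log2 fold change, was 4.37 ± 0.17 for Rsad2 (adjusted p = 1.55e-13), 3.49 ± 0.29 for Isg20 (adjusted p = 1.26e-08) and 3.30 ± 0.31 for Isg15 (adjusted p = 5.24e-08). Oas3 (1.59), Usp18 (1.37), Cmpk2 (1.28), Ifit1, Oasl1 (both 1.27), Irf7 (1.26) and Mx2 (1.17) followed, and Gbp2 had -1.62 ± 0.43 (adjusted p = 0.00686). Isg20 was the member that fell in marrow and rose in kidney.

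Of the 15 members that fell in marrow 14 differed between tissues, and the exception was Mx1 (0.56 ± 0.49, adjusted p = 0.429), which kidney held at only 0.501 CPM. The calls for Ifit2, Ifit3b, Parp14 and Mx2 were close to the threshold (adjusted p between 0.0253 and 0.0446), and leaving out 1 of the 20 libraries ended them in 15, 13, 11 and 3 fits, with highest adjusted p of 0.113, 0.0831, 0.0960 and 0.0552. Gbp3 (-0.68 ± 0.28, adjusted p = 0.0756) crossed the threshold without oxaliplatin marrow mouse 1 or 5 or oxaliplatin kidney mouse 1, as did Oas1a without oxaliplatin marrow mouse 1 (-0.89, adjusted p = 0.0410) and Ddx58 without vehicle kidney mouse 2 (0.30, adjusted p = 0.0458). Between 16 and 18 members differed under these fits.

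Before any drug the set was already far lower in kidney. Of the 35 members 30 were lower in vehicle kidney than in vehicle marrow and 3 higher, against 38.3% and 34.6% of all genes, or 72.9% in all. Oas3 (log2 difference -7.43 ± 0.28), Isg20 (-7.07 ± 0.23), Isg15 (-4.03 ± 0.23), Mx1 (-3.84 ± 0.34) and Rsad2 (-3.53 ± 0.13) were farthest below marrow. Ifit3 (1.29 ± 0.24), Ifit3b (1.34 ± 0.22) and Ifi44 (1.54 ± 0.39) were higher in kidney. Gbp2 (0.04 ± 0.31) and Ifi27 (0.51 ± 0.14, under 1.5-fold) were not called. RNA extraction differed with tissue, so the 2 cannot be told apart in these values.

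The interferons themselves were near or below detection in both tissues. Apart from Ifnk, an epithelial type I interferon, the other 20 interferon genes listed (Ifnb1, Ifna1, Ifna2, Ifna4, Ifna5, Ifna6, Ifna7, Ifna9, Ifna11, Ifna12, Ifna13, Ifna14, Ifna15, Ifna16, Ifnab, Ifne, Ifnz, Ifng, Ifnl2 and Ifnl3) had at most 10 counts in any library and were not tested. Of the 21 genes, 12 were at 0 in every marrow library and 12 in every kidney library, where 3 counts, the limit that a count of 0 allows, correspond to between 0.0667 and 0.129 CPM, counting error only. Ifng summed to 4 counts over the 5 vehicle marrow libraries and to 31 over the 5 oxaliplatin ones, and in kidney to 7 and 0. Ifnk had a log2 fold change of -0.42 ± 0.47 in marrow (adjusted p = 0.542) and 0.15 ± 0.48 in kidney (adjusted p = 0.84).

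None of the 6 receptor genes was called in either tissue, by edgeR or DESeq2, although 3 in marrow and 1 in kidney had an unadjusted p under 0.05. In marrow both chains of the type I receptor were lower without overlap but under 1.5-fold, Ifnar1 from 103 to 77.3 CPM (log2 fold change -0.41 ± 0.12, adjusted p = 0.0177) and Ifnar2 from 89.3 to 68.0 CPM (-0.39 ± 0.10, adjusted p = 0.00766). The interferon gamma receptor chains Ifngr1 and Ifngr2 had 0.31 ± 0.12 (adjusted p = 0.066) and 0.08 ± 0.11 (adjusted p = 0.638). The interferon lambda receptor chains Ifnlr1 and Il10rb had -0.50 ± 0.38 (adjusted p = 0.35) and -0.12 ± 0.12 (adjusted p = 0.508). In kidney Ifngr2 was lower without overlap, from 30.2 to 24.7 CPM, under 1.5-fold (-0.29 ± 0.08, adjusted p = 0.0123), and the other receptor genes had log2 fold changes between -0.04 and 0.20 with adjusted p of at least 0.162.

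Of 13 genes of receptor signalling, 2 rose in marrow (15.4%), near the 11.6% of all genes, and 0 fell. Socs3, an inhibitor of cytokine receptor signalling, rose in marrow from 17.1 to 57.1 CPM (log2 fold change 1.74 ± 0.12, adjusted p = 4.44e-07). It also rose in kidney from 3.55 to 5.65 CPM (0.67 ± 0.18, adjusted p = 0.00857), as 1 of 13 (7.69%, against 7.68% of all genes). Ptpn11, a phosphatase, rose in marrow from 271 to 407 CPM (0.59 ± 0.11, adjusted p = 0.000923). Of 19 further sensor and adaptor genes tested in marrow, 1 rose and 1 fell (5.26% each), below the 11.6% and 11.8% of all genes. Tlr3, the endosomal receptor of double-stranded RNA, rose (1.11 ± 0.26, adjusted p = 0.00493). Tlr9, the receptor of CpG DNA, fell from 36.7 to 15.7 CPM (-1.23 ± 0.26, adjusted p = 0.00276). In kidney Irf5, a factor downstream of these receptors, fell from 19.5 to 9.11 CPM (-1.10 ± 0.21, adjusted p = 0.00232). It was 1 of 18 tested (5.56%, against 3.8% of all genes).

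Of a list of 87 further interferon-stimulated genes tested in marrow, 12 were called higher (13.8%) and 14 lower (16.1%), near the 11.6% and 11.8% of all genes, and the median log2 fold change was -0.10. Leaving out genes under 1 in mean log2 CPM, the largest rises were those of Cxcl9, a T cell chemokine best known as a target of interferon gamma, from 6.21 to 46.5 CPM (2.90 ± 0.36), and the immunity-related GTPase Iigp1, from 12.0 to 63.9 CPM (2.42 ± 0.31). Ly6a, which encodes the stem cell antigen Sca-1 (1.27 ± 0.16), Cd274, the checkpoint ligand PD-L1 (1.14 ± 0.20), and the guanylate-binding protein gene Gbp5 (1.05 ± 0.19) followed. The largest falls were those of Ube2l6 (-2.43 ± 0.17), the AIM2-like receptor genes Ifi214 (-2.0 ± 0.20) and Ifi209 (-1.84 ± 0.14), Oas1b (-1.59 ± 0.18) and Pml, the organizer of nuclear bodies (-1.27 ± 0.14). All adjusted p of these 10 were at most 0.000769, and in each the groups did not overlap.

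**Figure D4:**
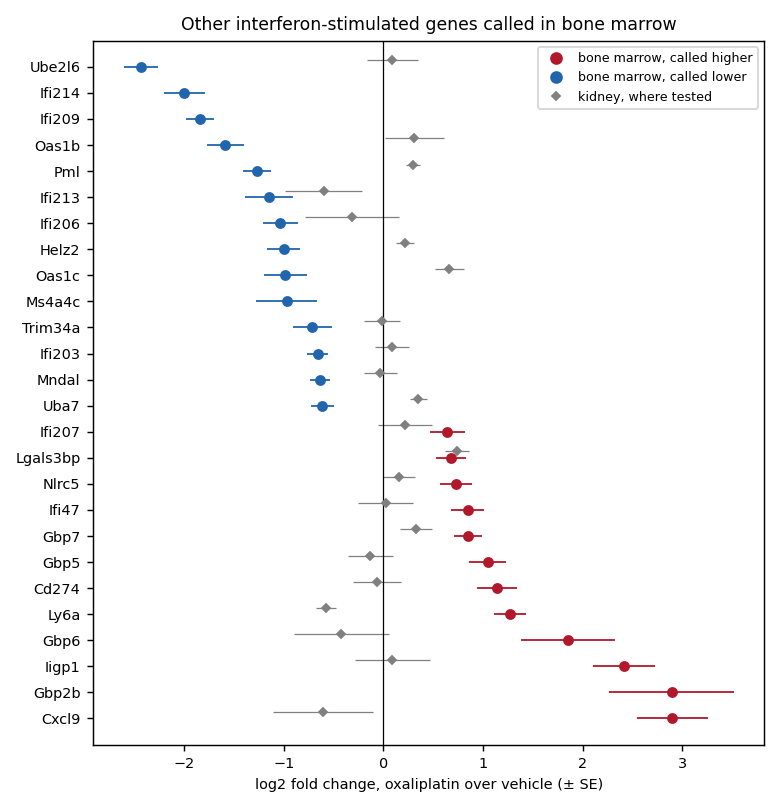
Log2 fold change, oxaliplatin over vehicle, with its SE (horizontal axis) of the 26 other interferon-stimulated genes called in bone marrow (circles, red higher and blue lower), with the kidney value as a grey diamond where the gene was tested. Ube2l6 is lowest in marrow at -2.43, and Cxcl9 at 2.90 and Gbp2b, under the level limit for named genes, are highest.

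In kidney 76 genes of that list were tested, of which 4 rose (5.26%) and 2 fell (2.63%), against 7.68% and 3.8% of all genes. Lgals3bp, a secreted glycoprotein, rose from 46.2 to 77.1 CPM (0.74 ± 0.12, adjusted p = 0.000416). Ifitm1 (0.72 ± 0.22, adjusted p = 0.0183), Ifi27l2a (0.67 ± 0.20, adjusted p = 0.0162) and Oas1c (0.66 ± 0.15, adjusted p = 0.00267) also rose. Tnfsf10, the death ligand TRAIL, fell from 42.1 to 26.3 CPM (-0.68 ± 0.13, adjusted p = 0.0013); the other gene that fell, Phf11b, lay at 1.12 and 0.358 CPM (-1.63 ± 0.37, adjusted p = 0.0035) and is named for being 1 of 2. By the interaction test the response differed between tissues for Cxcl9 (kidney minus marrow -3.59), Iigp1 (-2.39), Ly6a (-1.90), Cd274 (-1.26) and Gbp5 (-1.24), each with an adjusted p of at most 0.00555. It differed in the other direction for Ube2l6 (2.47), Oas1b (1.84) and Pml (1.5), each at most 0.000328, whereas Ifi214 (1.73, adjusted p = 0.317) and Ifi209 (-0.33, adjusted p = 0.59), both too low in kidney to be tested there, did not pass.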

How the data were processed

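The deposited values were whole-number counts, not normalized by the authors, which the paper describes as STAR alignment to the mouse genome of Ensembl release 101 followed by counting of unambiguous reads in Partek Flow. The paper and the sample records name different STAR versions and library chemistries (SMARTer cDNA, or ribosomal RNA removal with random hexamers). The sample records also name featureCounts of Subread, where the paper has Partek Flow, so the counting tool is uncertain. Strand use is not given in the sources used here. The 3 count floor covers counting error only. Samples were grouped by title. In each tissue 287 repeated identifiers and 1 incomplete line were left out.

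Genes passing filterByExpr (minimum count 10) were TMM-scaled and tested with edgeR 4.0.16 (quasi-likelihood F-test, two-sided; limma 3.58.1 under R 4.3.3), Benjamini-Hochberg adjusted over all tested genes and called at adjusted p under 0.05 and 1.5-fold. Tissues were fitted alone, the interaction over 20 libraries at adjusted p under 0.05. SEs are the log2 fold change divided by the square root of F. CPM are TMM-scaled, and mean log2 CPM used a prior count of 2. Positions and exon lengths are from GENCODE M21 (GRCm38), promoters from RefSeq. Steps were tested on simulated counts with a shared dispersion for all genes and changes well beyond 1.5-fold. Calls near that threshold were not covered. Alternatives were DESeq2 1.42.0, 2 scalings, 2 filters, Y-linked expression as a covariate, a replicate block, 2 thresholds and each library left out. The covariate does not adjust for sex, since no library had a female pattern. Y-linked expression in marrow was lowest in oxaliplatin mouse 5, at 99 CPM. The block was the replicate number within a tissue, and treatment with replicate number between tissues. Figures used matplotlib 3.10.9.

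Members and lists were chosen with earlier results of these data known. Named genes are all members, every interferon and receptor gene, and per other pathway list the 5 largest called changes in each direction at a mean log2 CPM of at least 1; Uba7 and Phf11b fall outside that rule. One pathway gene is not reported here. Of each list of 12 markers counts are given.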

Additional observations from a re-analysis of the deposited data

Results flagged for a closer look

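In marrow and kidney together, 140 sets of 5 mice (35 members in 4 groups) were searched for a mouse far from the other 4 by Dixon's test, and 11 had one. Chance gives about 1 in 20, or 7. In vehicle marrow, mouse 4 stood above the others for Gbp2 (16.1 CPM against 8.16 to 9.79), Gbp3 (13.8 against 10.1 to 11) and Rtp4 (11.8 against 7.05 to 8.24). In oxaliplatin marrow, mouse 4 stood above for Zbp1 (13.6 against 7.84 to 9.01). In vehicle kidney, mouse 5 stood above for Irf7 (15.8 against 11.4 to 12.4) and Rsad2 (21.6 against 16.7 to 18.1), and mouse 3 for Isg20 (1.73 against 0.809 to 1.04) and Ifi44 (5.05 against 3.13 to 3.58). In oxaliplatin kidney, mouse 2 stood above for Isg20 (3.06 against 1.90 to 2.21) and below for Ifit1 (2.22 against 2.94 to 3.21), and mouse 5 below for Rtp4 (0.959 against 2.49 to 2.92).

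The response to oxaliplatin differed between kidney and marrow for 19 members, by the interaction test of edgeR with an adjusted p under 0.05. As kidney minus marrow log2 fold change, the difference was 4.37 for Rsad2, 3.49 for Isg20, 3.30 for Isg15, 1.59 for Oas3, 1.37 for Usp18, 1.28 for Cmpk2, 1.27 for Oasl1, 1.27 for Ifit1, 1.26 for Irf7 and 1.17 for Mx2. It was 0.96 for Herc6, 0.96 for Xaf1, 0.87 for Ifit3b, 0.86 for Irf9, 0.77 for Dhx58, 0.58 for Ifit2, 0.49 for Stat2 and 0.44 for Parp14. Gbp2 went the other way at -1.62.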

How the results depend on the processing

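The counts of members called in marrow (17, 15 of them lower) stayed within 1.5 times of the value reported under every alternative run, except that 1 and not 2 members rose in a test against 1.5-fold. In kidney the count of 2, all higher, became 4 without a fold threshold and 0 in the test against 1.5-fold. That test called 2730 genes in marrow and 454 in kidney over all genes, against 5221 and 2215. The mean level over the members in marrow moved from -0.79 to -0.24 with the median. Scaling by library size alone moved the all-gene median log2 fold change from -0.04 to 0.11 in marrow and from 0.02 to 0.16 in kidney, and the share of higher among called genes from 49.6% to 63.3% and from 66.9% to 82.7%. Directions that changed belong to members not called. In marrow these were Ifit2, Rtp4 and Ifi35 with library size alone (0.10, 0.056 and 0.081) and with the Y-linked covariate (0.031, 0.34 and 0.00035). In kidney they were Irf9 (0.12 with library size alone, 0.013 at 10 counts in every library), Ifih1 (0.033) and Ifit3b (0.011) with library size alone, Ifi27 (0.13 with library size alone, 0.0012 with all genes of at least 1 count, 0.024 at 10 counts in every library, 0.0031 with the covariate), Oasl2 (-0.0023 with the covariate) and Ifi35 (-0.0073 with DESeq2, -0.0066 with size factors). Between tissues they were Bst2 (0.011 with library size alone, 0.080 at 10 counts in every library) and Ifi35 (-0.010 with all genes of at least 1 count, -0.044 with the covariate). The cause was not tested. The tissue differences of Ifit2, Ifit3b and Parp14 lost their call with the covariate and with all genes of at least 1 count, and that of Mx2 with the latter. With at least 10 counts in every library Ddx58 (0.36, adjusted p = 0.0138), Ifih1 (0.38, adjusted p = 0.0424) and Trim30a (0.50, adjusted p = 0.0435) gained one.

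With 1 library left out, marrow gave 17 to 19 members, 2 higher and 15 to 17 lower. Kidney gave 1 to 3, all higher, and 0 lower. Between tissues 16 to 18 differed, 14 to 17 with kidney above and 1 to 3 below. Vehicle tissues gave 33 each time, 3 higher and 30 lower. The mean level ran from -0.85 to -0.71 in marrow and from -0.016 to 0.11 in kidney. Directions changed for uncalled values: in marrow Zbp1 (-0.14 to 0.13), Oas1a (-0.091 to 0.20), Ifit2 (-0.14 to 0.064), Rtp4 (-0.32 to 0.15), Ifi27 (-0.0066 to 0.23) and Ifi35 (-0.13 to 0.017), in kidney Irf9 (-0.083 to 0.054), Stat2 (-0.0013 to 0.12), Oas2 (-0.35 to 0.014), Oasl2 (-0.078 to 0.088), Gbp2 (-0.13 to 0.29), Trim30a (-0.085 to 0.13), Ifi27 (-0.064 to 0.083), Ifi35 (-0.041 to 0.064) and Ifi44 (-0.014 to 0.29), and between tissues Bst2 (-0.20 to 0.058), Ifitm3 (-0.019 to 0.17), Rtp4 (-0.037 to 0.42) and Ifi35 (-0.086 to 0.094).

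The labels do not say whether equal numbers mark the same mouse in both tissues, so the main fits did not use the numbers as pairs. Same-numbered deviations correlated at -0.118 to 0.228 in marrow, -0.154 to 0.0754 in kidney and -0.0504 to 0.158 between tissues. These correlations cannot show whether equal numbers mark the same mouse. In kidney, the oxaliplatin mouse numbered 5 held the lowest oxaliplatin value for 17 members (48.6%), against 22.6% of all genes. The one numbered 4 held the highest in kidney for 17 (48.6%), against 23.5%. Members vary together, so these counts do not show that the marrow mice of those numbers are the same animals. Within a tissue the replicate block joined a vehicle and an oxaliplatin mouse of equal number, which are different mice. Between tissues it took equal numbers within a treatment as the same mouse, which the labels do not state. With the block 18 members were called in marrow (2 higher, 16 lower, Ifit3 added) and 2 in kidney. It gave 18 between tissues (Ifit2 lost) and 33 between vehicle tissues. Under the block the direction changed for Oas1a in marrow (-0.0029), Ifi35 in kidney (-0.0012) and Bst2 between tissues (0.0066). Depth limits members under 1 CPM in kidney and the interferon genes.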
